A study of Ostreococcus tauri with 84 samples.

Results

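The 164 genes described here, of 7668 measured, were chosen by their lower transcript levels in constant darkness (DD) than in constant light (LL) in Ostreococcus tauri, a marine picoeukaryotic green alga. For each gene the median FPKM (fragments scaled to the length of the transcript and to the mapped reads of the library) was taken over the 12 DD libraries and over the 12 LL libraries that followed the same entrainment. A gene was included when the LL median plus 1 was at least 4 times the DD median plus 1 after each of 2 entrainments, and when both LL medians reached 20 FPKM, as they did for 5339 genes. The members are 2.14% of all genes, and 89 genes met the same rule in the opposite direction.

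All cultures were strain RCC4221, with no other genotype given, grown in photochemostats. The groups were DD after entrainment to short days (SD, 8 h light and 16 h dark), DD after entrainment to long days (LD, 16 h light and 8 h dark), LL after SD and LL after LD, with 12 libraries each, and the entraining cycles SD and LD themselves, with 18 libraries each. Samples were taken every 4 h, 3 per time point in SD and LD and 2 per time point in DD and LL, and carry numbers 1 to 3 (SD, LD), 4 and 5 (LL), and 6 and 7 (DD). Per the study's methods the samples of a time point came from consecutive days and the first day of DD or LL was not sampled, so p-values measure the spread between days of a culture and not between separate cultures. SD and LD were separate cultures with different dilution rates, so photoperiod and culture cannot be told apart. DD values were deposited in a table of their own, so the darkness and the processing of that table cannot be told apart either. The methods also state that medium was fed in the light period and that LL was held at the highest irradiance of the cycles. Medium supply in DD and LL is not described, so light and medium supply cannot be told apart.

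In green algae and plants, light drives the expression of the nuclear genes for the antenna proteins that bind chlorophyll and for many photosystem subunits, and a circadian clock sets the hour of their peak. Cells of O. tauri grow in the light and divide after replicating their DNA, and transcripts for DNA replication precede those for chromosome condensation and mitosis. Iron and zinc are taken up by permeases of the ZIP family, and the photosynthetic electron transport chain is rich in iron.

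Mapped reads, estimated from the smallest steps between low FPKM values, were 510000 to 14230000 per library, with a median of 8060000. The shallowest libraries were LD number 3 at Zeitgeber time 0 (ZT0, lights on) with 510000 reads, at ZT4 with 780000 and at ZT8 with 1500000, and 42 to 1007 genes per library were listed at 0. At such depth a value of 0 is no proof of absence. An example is the replication gene PCNA, listed at 0 in LD number 3 at ZT0, the library with 510000 reads. A low level at that hour and the shallow library cannot be told apart there. Of the 164 genes, 28 were listed at 0 in at least 1 library of DD after SD, 2 in DD after LD, 0 in LL after SD and 0 in LL after LD. In the entraining cycles 28 were listed at 0 in a library of SD and 48 in one of LD. FPKM is a share of the RNA sequenced, which the labels call polyA RNA although the kit they name is for total RNA. Fewer transcripts per cell, fewer cells with the transcript and more RNA of other genes cannot be told apart in these bulk samples.

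The gap between darkness and light was wide for some members and modest for most. The ratio of LL to DD medians (each plus 1) ranged from 4.0 to 315 after SD with a median of 7.19, against 1.15 for all genes, and from 4.06 to 611 after LD with a median of 6.78, against 1.1 for all genes. By the smaller of its ratios, 53 members lay between 4 and 5, 66 between 5 and 8, 34 between 8 and 16, and 11 at 16 or above. The members were selected on these ratios, which are given as a description, without a test. On its own, the ratio of 4 was reached by 4.04% of all genes after SD and by 3.57% after LD.

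Few of these transcripts disappeared. The median over members was 11.2 FPKM in DD after SD and 104 in LL after SD, against 36.4 and 41.0 for all genes, and it was 11.2 FPKM in DD after LD and 90.4 in LL after LD, against 37.2 and 40.4 for all genes. Both DD medians were under 1 FPKM in 1 member, under 5 FPKM in 42 and under 20 FPKM in 99, and the highest DD medians, those of the antenna gene ostta16g00450, were 1687 FPKM after SD and 2050 FPKM after LD. The highest DD library was below the lowest LL library in 138 members after SD, where 9.53% of all genes showed this, in 95 members after LD (5.82% of all genes), and in 87 members after both (3.14% of all genes). The same contrast chose the members, so these counts carry no further evidence.

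**Figure D1:**
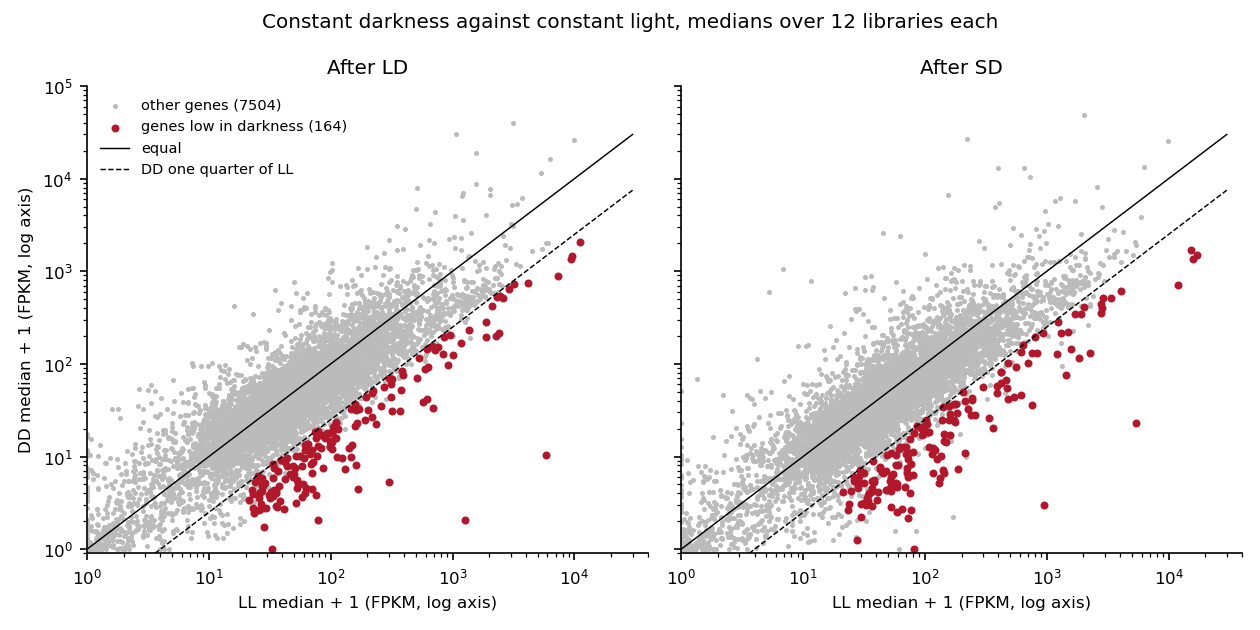
Median FPKM plus 1 in DD (vertical, log axis) against LL (horizontal, log axis) after LD (left) and after SD (right), with 1 point per gene, the 164 chosen genes in red and the other genes in grey; the solid line marks equal medians and the dashed line a DD value 4 times lower. The red points spread along the dashed line over the whole range of LL levels, and ostta06g02310 and ostta06g02290, at LL medians of 945.8 to 5837 FPKM, lie farthest below it.

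At the limit of 4, the choice separated near-equal genes. Just inside were ostta10g00530, a mitochondrial carrier with DD against LL medians of 158.8 and 638.3 FPKM after SD and a smaller ratio of 4.0, the ABC transporter gene ostta03g00040 (4.01) and ostta08g04130 (4.06), whose product is not named. Just outside were ostta02g04430, which encodes a tetratricopeptide-like protein, and ostta17g02150, another mitochondrial carrier, both at 3.96, and ostta15g00800 at 3.94, which encodes a protein with a nucleotide-binding fold.

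In darkness the members were lower in the libraries with sample number 7 than in those with number 6. Their median was 6.6 FPKM in number 7 and 17.7 FPKM in number 6 in DD after SD, and 7.4 and 19.0 FPKM in DD after LD. Of the 164 genes, 159 (97.0%) were lower in number 7 after SD, by a median log2 difference of −1.1. Of the 5339 genes that reached 20 FPKM in LL, 70.2% were lower, with a median of −0.22. After LD, 156 (95.1%) were lower, by −1.05, against 72.4% and −0.29. The DD medians that chose the members hold both numbers, so nothing is read from the excess over the 5339 genes. In LL after SD, 61 members (37.2%) were lower in number 5 than in number 4, with a median log2 difference of 0.08, against 42.2% and 0.05 for the 5339 genes. In LL after LD most members were higher in number 5, as 25 (15.2%) were lower and the median was 0.49, against 39.0% and 0.07. With numbers 7 alone the rule would take 266 genes, among them 163 of the 164, and with numbers 6 alone 80 genes, all of them members. The labels do not tie the numbers to days, so the order of these values in time is not given here.

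The same rule picked genes that were not low at all times under the entraining cycles. Over single libraries, the median FPKM of the 164 genes was 1.92 to 31.2 in DD after SD and 92.0 to 113 in LL after SD, and 5.2 to 22.9 in DD after LD and 51.2 to 133 in LL after LD, against 17.0 to 130 in SD and 31.3 to 162 in LD. Their summed share of all FPKM was 0.465 to 3.42% in DD after SD and 10.7 to 15% in LL after SD, 0.613 to 4.51% in DD after LD and 7.8 to 13.4% in LL after LD, 3.63 to 25.9% in SD and 2.25 to 19.0% in LD. DD and LL libraries did not overlap in either measure, while the SD and LD libraries reached shares above those of LL. The genes were chosen by their DD and LL medians over these libraries, so nothing is read from the gap between DD and LL. The lowest LD share lay within the range of DD after LD, and the lowest SD share lay above the highest of DD after SD.

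**Figure D2:**
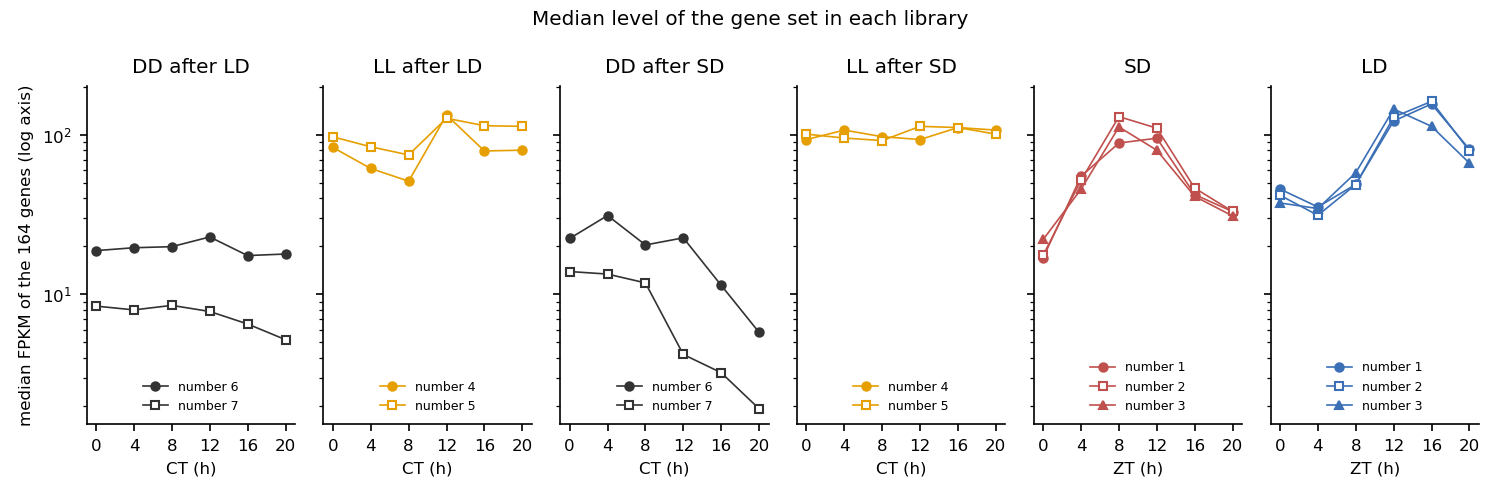
Median FPKM of the 164 genes (log axis) in every library against the hour of sampling, with 1 panel per regime (DD after LD, LL after LD, DD after SD, LL after SD, SD, LD) and 1 symbol per sample number. In both DD panels the open squares (number 7) lie below the filled circles (number 6) at all 6 time points, the LL libraries lie between 51.2 and 133, and the SD and LD libraries follow the hour of the day.

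The largest ratios belonged to neighbouring genes of chromosome 6, a zinc/iron permease gene and a gene for a CobW-like protein. The gene ostta06g02310, annotated as a zinc/iron permease (ZIP family), had between 0.531 and 14.7 FPKM (median 2.00) in DD after SD and between 214 and 1425 (median 946) in LL after SD. After LD it had 0.388 to 3.13 FPKM (median 1.07) in DD and 400 to 2088 (median 1265) in LL. The lowest LL library was thus over 10 times the highest DD library after either entrainment, with ratios of the medians plus 1 of 315 and 611. On the same stretch, ostta06g02290 encodes a protein with a CobW-like C-terminal domain, and its annotation names cobalamin biosynthesis. CobW-like proteins are GTPases of which several are known as metal chaperones. The gene ostta06g02290 had 3.14 to 172 FPKM (median 22.3) in DD after SD and 2496 to 7449 (median 5420) in LL after SD. After LD it had 6.63 to 33.5 (median 9.35) in DD and 2671 to 7702 (median 5837) in LL.

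Between these genes lies ostta06g02300, which encodes a basic leucine zipper (bZIP) protein, a type of transcription factor; its values, like those of the other members here that are not among the highest ratios, were looked up after the locus had been noticed. Its median was 100.3 FPKM in DD and 704.3 in LL after SD, and 40.96 in DD and 611.1 in LL after LD. The member ostta06g02270, with a lactate dehydrogenase/glycoside hydrolase domain, stood at 91.78 FPKM in DD and 555 in LL after SD and at 92.27 and 625.7 after LD, and ostta06g02350, whose product is not named, at 5.0 and 52.11 after SD and at 8.55 and 42.82 after LD. The stretch was not low in darkness as a whole. Its gene ostta06g02280, between 2 members, had ratios of 0.62 after SD and 0.466 after LD, the glycosyl hydrolase gene ostta06g02320 next to the permease 2.38 and 2.55, and the Myb gene ostta06g02340, which the study names as the clock gene CCA1, 0.532 and 0.611, which is higher in DD than in LL.

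**Figure D3:**
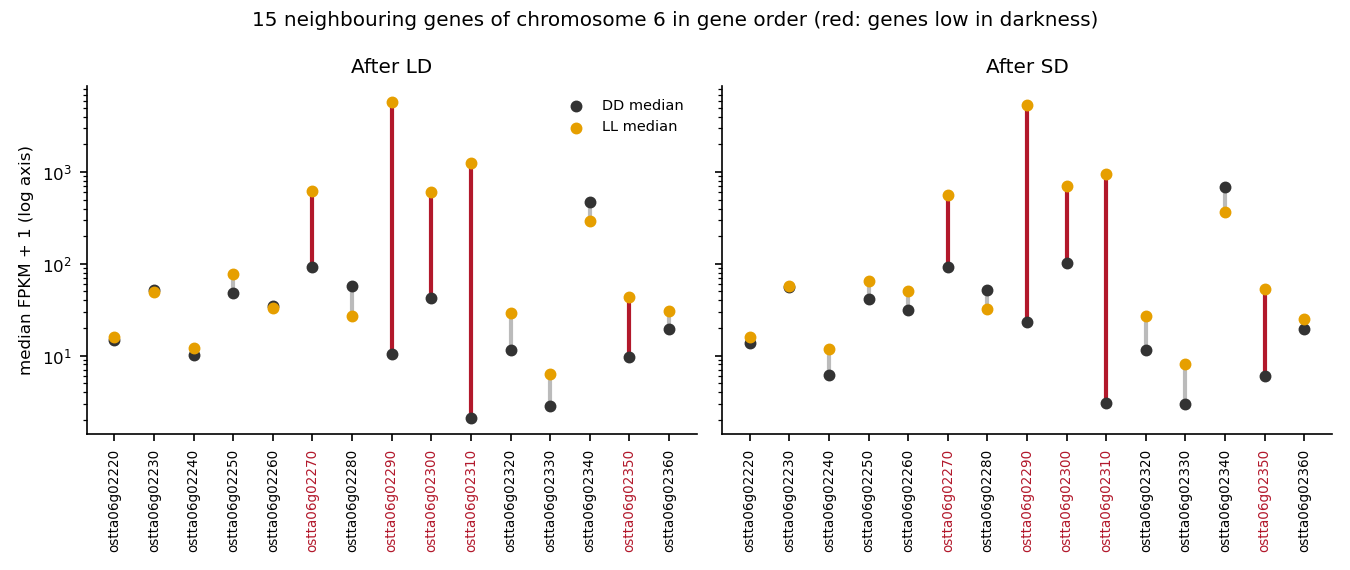
Median FPKM plus 1 (log axis) in DD (dark points) and LL (yellow points) for 15 neighbouring genes of chromosome 6 in gene order, after LD (left) and after SD (right), with red lines and labels for the 5 members. The longest lines belong to ostta06g02290 and ostta06g02310, and non-members lie between members.

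A second ZIP permease gene on another chromosome, ostta16g02300, belonged to the set too. It had 16.3 to 75.4 FPKM (median 43.0) in DD after SD and 91.7 to 835 (median 532) in LL after SD, and 8.94 to 66.3 (median 32.7) in DD after LD and 185 to 1153 (median 692) in LL after LD, so DD and LL libraries did not overlap. Looked up after its values were seen, ostta08g00560, which encodes a protein of the ferritin-like superfamily, had medians of 25 FPKM in DD and 337 in LL after SD and of 25.5 and 218 after LD.

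Some of these genes also differed between SD and LD, in libraries the rule did not use. Averaged over the 6 time points, ostta06g02310 was higher in SD than in LD by 1.87 ± 0.21 on the log2(FPKM + 1) scale (standard error, limma adjusted p = 4.5e-08), ostta06g02290 by 1.57 ± 0.15 (adjusted p = 4e-09) and ostta06g02300 by 0.97 ± 0.10 (adjusted p = 1.1e-08). For ostta16g02300 the difference of 0.35 ± 0.16 did not pass (adjusted p = 0.072). At ZT0 the permease gene ostta06g02310 stood at 868.8 ± 195 FPKM in SD and at 35.7 ± 17.9 in LD (mean ± s.d., n = 3 each), and at ZT16 at 745.2 ± 384 in SD and 401 ± 235 in LD. In LD all 4 genes were lower at night than by day, with log2 differences of −1.66 ± 0.32 for ostta06g02310 (limma adjusted p = 6.1e-05), −1.44 ± 0.23 for ostta06g02290, −0.52 ± 0.15 for ostta06g02300 and −1.16 ± 0.24 for ostta16g02300. In SD none of the 4 passed (limma adjusted p from 0.087 to 1.0), and at ZT0, after 16 h of darkness, ostta06g02310 in SD was far above its DD medians of 2.00 and 1.07 FPKM.

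The most abundant members encode proteins of the photosynthetic membrane. Of 24 genes annotated as chlorophyll a/b-binding antenna proteins, which collect light for the photosystems, 9 were members, and the ratio of LL to DD reached 4 in 14 of the 24 after SD and in 9 after LD. Median ratios over the 24 genes were 5.49 and 3.47, against 1.15 and 1.1 for all genes. The gene ostta03g04550 had 337 to 4390 FPKM (median 1486) in DD after SD and 14580 to 23690 (median 17010) in LL after SD, and 387 to 5837 (median 1449) in DD after LD and 7189 to 16680 (median 9550) in LL after LD. Its DD libraries thus stayed among the more abundant transcripts of the cell while lying below every LL library. The neighbouring antenna gene ostta03g04540 gave nearly the same medians, 1366 FPKM in DD and 15920 in LL after SD and 1357 and 9394 after LD; reads of such similar gene copies may be shared between them, so the values of a single antenna gene are uncertain.

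Other antenna members had DD values of the same order below LL. Medians were 701.2 FPKM in DD and 12000 in LL after SD for ostta07g02530, and 898.1 and 7296 after LD. For ostta05g03830 they were 129.2 and 2281 after SD and 199.6 and 2284 after LD. Among the antenna genes that were no members, ostta08g04020 had ratios of 14.1 after SD and 3.42 after LD, ostta18g01230 5.44 and 3.75, and ostta05g01780 1.59 and 0.94.

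In SD and LD the antenna gene ostta03g04550 went beyond its medians in DD and LL on both sides. Its mean was 44060 ± 11400 FPKM at ZT4 and 580 ± 324 at ZT12 in SD, and 36210 ± 203 at ZT8 and 72.4 ± 24.2 at ZT0 in LD (mean ± s.d., n = 3). Night minus day was −4.42 ± 0.28 on the log2 scale in SD and −7.04 ± 0.28 in LD (standard error, limma adjusted p = 1.6e-12 and 1.2e-17). All 9 antenna members were lower at night in both photoperiods, where 8.03% of all genes were in SD and 19.8% in LD, and all 9 peaked at ZT4 in SD and at ZT8 in LD. In the whole list of 24, 14 were lower at night in SD and 24 in LD, with 1 higher in SD. At the end of the LD night the antenna transcripts were below their level in DD, as the DD median lay under the lowest time point of the entraining cycle for 1 of the 9 members in SD and for 0 in LD.

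Of 42 photosystem and electron transport genes, 5 were members, on a list whose median ratios were 2.1 after SD and 1.94 after LD. The proteins PsbO (ostta14g00150), PsbP (ostta14g02630) and PsbQ (ostta16g01620) form the oxygen-evolving complex of photosystem II, and these 3 genes were members. Another gene that the study's supplement names PsbP was not a member. PsbO had 116.1 to 1299 FPKM (median 447.6) in DD after SD and 2312 to 3154 (median 2802) in LL after SD, and 156.3 to 1977 (median 732) in DD after LD and 2224 to 4290 (median 3172) in LL after LD. For PsbP the medians were 508.7 in DD and 3349 in LL after SD and 635.7 and 2885 after LD, and for PsbQ 405.8 and 2010 after SD and 521.5 and 2316 after LD. PsaF (ostta04g01790), a subunit of photosystem I, had medians of 395.5 in DD and 2845 in LL after SD and 538.9 and 2428 after LD. None of these 4 genes had overlapping DD and LL libraries, and in 3.14% of all genes the DD libraries lay below the LL libraries after both entrainments. The same contrast chose the members, so this carries no further evidence. Of the 5 members, 4 were lower at night in SD and 5 in LD, where 8.03% and 19.8% of all genes were lower. The exception in SD was the Psb28 gene ostta16g00650 (−0.1 ± 0.21, limma adjusted p = 0.75). Among the 42 genes of the list, 17 were lower and 7 higher at night in SD, and 27 lower and 8 higher in LD. Differences for PsbO were −2.09 ± 0.11 in SD and −4.23 ± 0.11 in LD (limma adjusted p = 3.7e-14 and 2e-21).

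The pigment and carbon pathways beside these proteins had no members. None of 18 genes for chlorophyll and haem synthesis, 10 for carotenoid synthesis and 40 of the Calvin cycle was in the set, and their median ratios were 1.42, 1.62 and 1.08 after SD and 1.36, 1.02 and 1.16 after LD, against 1.15 after SD and 1.1 after LD for all genes.

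Of 34 DNA replication genes, 4 were members: PCNA (ostta06g02890), the sliding clamp that holds DNA polymerase, the small and large subunits of the primase that starts each strand (ostta13g02040 and ostta11g00940), and MCM6 (ostta01g02580), part of the replicative helicase. PCNA had 2.63 to 178 FPKM (median 40.4) in DD after SD and 341 to 581 (median 477) in LL after SD, and 11 to 136 (median 30.0) in DD after LD and 175 to 681 (median 319) in LL after LD. The small primase subunit had medians of 8.452 in DD and 125.1 in LL after SD and of 7.758 and 69.86 after LD, the large one 3.251 and 51.93 after SD and 4.181 and 26.46 after LD, and MCM6 4.222 and 57.15 after SD and 2.586 and 24.99 after LD. Over all 34 genes the median ratio was 2.11 after SD and 1.46 after LD.

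These 4 genes peaked together, at ZT8 in SD and at ZT12 in LD. All 4 were lower at night in both photoperiods, where 8.03% of all genes were in SD and 19.8% in LD. Of the 34 replication genes, 18 were lower and 3 higher at night in SD, and 16 lower and 3 higher in LD. PCNA (ostta06g02890) reached 819.9 ± 189 FPKM at ZT8 in SD and 1268 ± 28.6 at ZT12 in LD (mean ± s.d., n = 3), and its night minus day difference was −1.84 ± 0.44 in SD (limma adjusted p = 0.0013) and −2.68 ± 0.44 in LD (adjusted p = 7.8e-06). In DD the medians of all 4 were under the lowest time point of SD, but of 0 under that of LD, where they passed through a deep trough at ZT0 to ZT4. ASF1 (ostta04g02380), a chaperone that hands histones to new DNA, followed the same hours, with medians of 47.27 FPKM in DD and 387.2 in LL after SD and of 43.41 and 308.3 after LD. So did the large subunit of ribonucleotide reductase (ostta01g00090), which makes deoxynucleotides and was looked up after its values were seen; it reached 457.4 ± 149 FPKM at ZT8 in SD and 574.7 ± 11.3 at ZT12 in LD, against DD medians of 26.83 after SD and 20.48 after LD.

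Genes of mitosis were among those with the largest ratios. Of 41 genes on the list of cyclins and mitosis, 6 were members, while the median ratio over the list was 2.01 after SD and 1.84 after LD. The gene of CKS (ostta07g01870), the small regulatory subunit of cyclin-dependent kinases, was listed at 0 in 3 of 12 libraries of DD after SD and in 3 of 12 of DD after LD, and its highest DD values were 65.06 and 33.36 FPKM, below the lowest LL values of 234.8 after SD and 89.45 after LD. CDKB (ostta15g00670), a kinase of the plant lineage that acts at mitosis and stands on the list of protein kinases, had 0.411 to 47.5 FPKM (median 6.38) in DD after SD and 145 to 244 (median 185) in LL after SD, and 1.82 to 22.5 (median 3.42) in DD after LD and 61.7 to 549 (median 166) in LL after LD. The B-type cyclin CYCB (ostta01g06150), the partner that activates mitotic kinases, had medians of 5.70 in DD and 116 in LL after SD and of 6.27 and 131 after LD. Smc2 (ostta04g00560) and a condensin subunit (ostta02g03610), which compact chromosomes, had medians of 6.667 in DD and 41.39 in LL after SD and of 6.816 and 43.04 after LD for Smc2, and of 5.193 and 27.55 after SD and of 4.909 and 26.26 after LD for the condensin subunit. Both had DD and LL libraries that overlapped after LD but not after SD. A gene of the tubulin/FtsZ family (ostta12g01320), whose proteins form filaments, stood at 53.87 and 468.5 after SD and at 69.21 and 509.6 after LD.

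Most of the mitotic members peaked later than the replication genes. Of the 6, 4 peaked at ZT12 in SD and 5 at ZT16 in LD, the first time point after lights off in SD and lights off itself in LD. CYCB (ostta01g06150) reached 267.1 ± 59 FPKM at ZT12 in SD and 414.4 ± 106 at ZT16 in LD (mean ± s.d., n = 3). Its night mean was above its day mean by 0.67 ± 0.37 in SD, which did not pass (limma adjusted p = 0.15), and by 2.25 ± 0.37 in LD (adjusted p = 7.9e-06). Of the 6, 2 were lower and 1 higher at night in SD, and 0 were lower and 3 higher in LD. Among the 41 genes of the list, 11 were lower and 6 higher in SD, and 12 lower and 12 higher in LD. Over all genes, 8.03% were lower and 32.6% higher in SD, and 19.8% lower and 35.2% higher in LD. Levels over the whole day were lower in SD than in LD for CYCB, by −1.69 ± 0.25 on the log2 scale (limma adjusted p = 2.6e-06). The same held for Smc2, by −1.14 ± 0.22 (adjusted p = 9.3e-05), and for CDKB of the kinase list, by −1.88 ± 0.20 (adjusted p = 2.1e-08). For the cyclin gene ostta18g01280, also 1 of the 6, the difference of 0.07 ± 0.33 did not pass (limma adjusted p = 0.89). Its peaks fell with those of the replication genes, at ZT8 in SD and at ZT12 in LD.

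**Figure D4:**
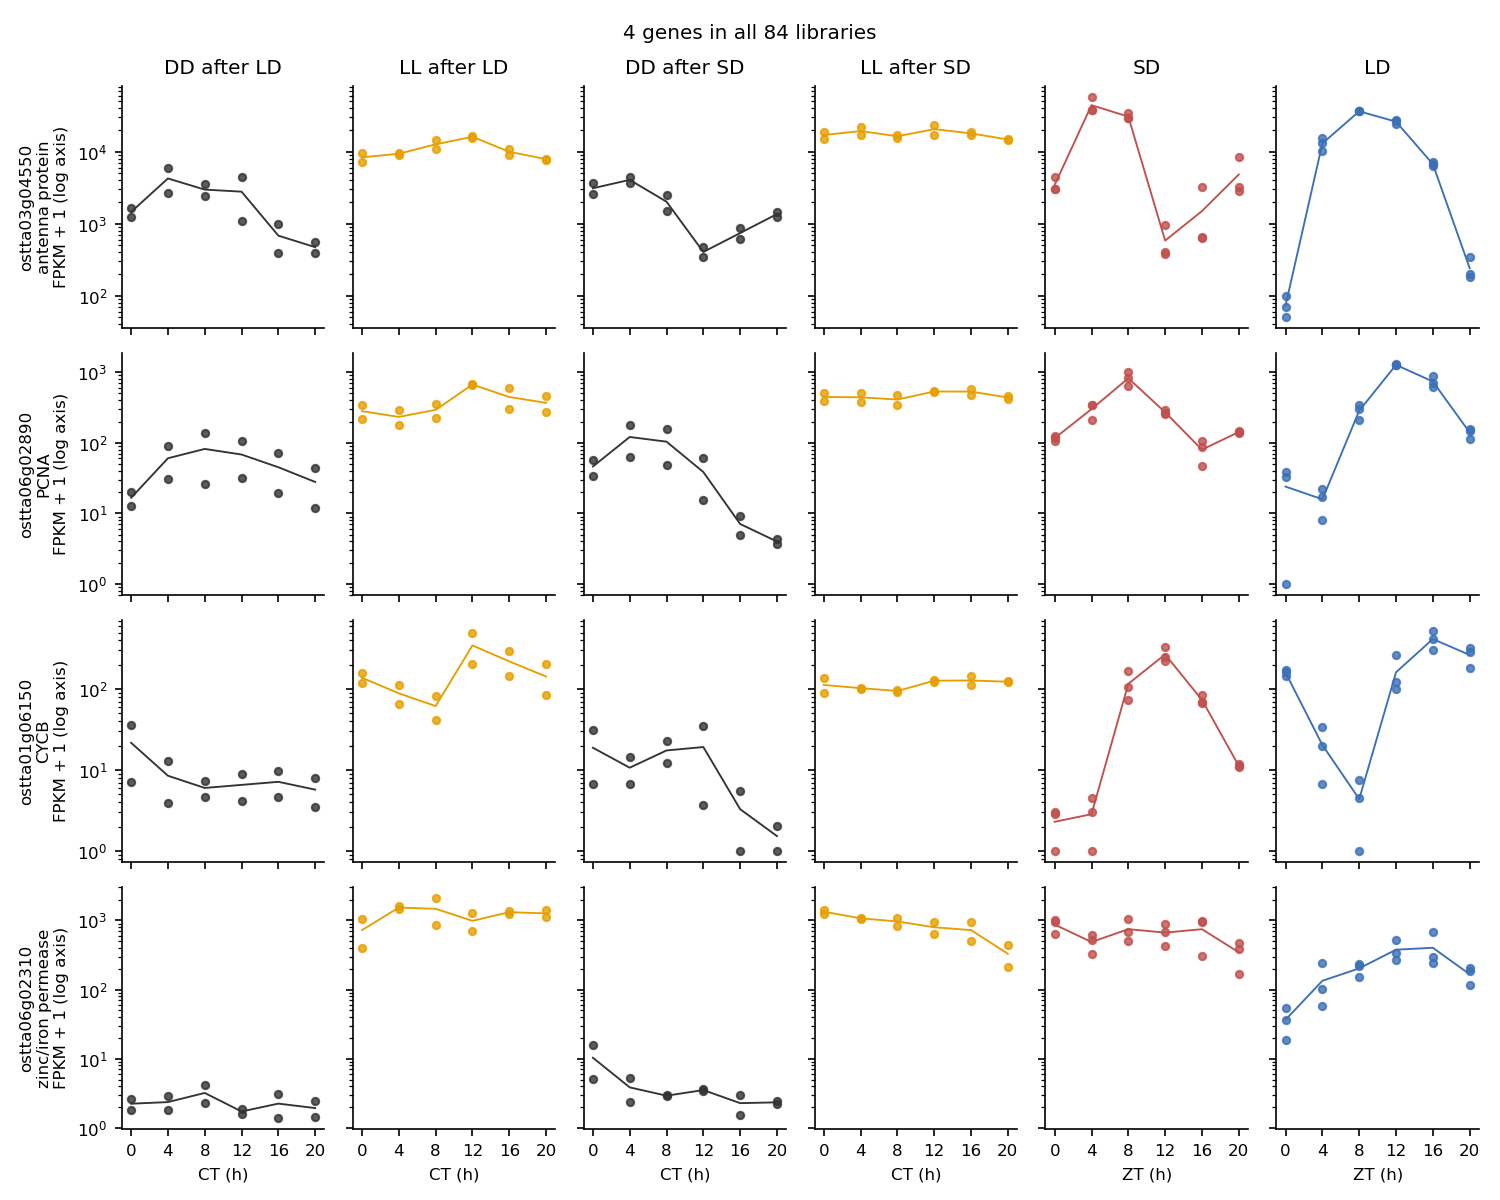
FPKM plus 1 (log axis) of an antenna gene (ostta03g04550), PCNA, CYCB and the zinc/iron permease gene ostta06g02310 in all 84 libraries against the hour of sampling, with 1 column per regime (DD after LD, LL after LD, DD after SD, LL after SD, SD, LD), 1 point per library and a line through the mean of each time point. The antenna gene, PCNA and CYCB each had an hour of LD at which the mean was below their DD median, whereas the permease gene reached at most 14.7 FPKM in DD and was above that value in all other libraries.

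Further members with large ratios had other or no known roles. A glycosyl hydrolase of family 13 (ostta07g01950), a family that includes enzymes acting on starch, had medians of 1.143 FPKM in DD and 71.16 in LL after SD and of 0.7382 and 27.24 after LD. A protein kinase gene, ostta10g01050, stood at 1.731 and 63.98 after SD and 1.73 and 40.46 after LD, and ostta05g02800, with a ubiquitin-associated domain, at 4.143 and 130.4 after SD and 2.848 and 75.03 after LD. The hypothetical gene ostta01g06545 was listed at 0 in 7 of 12 libraries of DD after SD and in 7 of 12 of DD after LD, with highest values of 35.11 and 9.015 FPKM, against LL medians of 81.03 after SD and 31.95 after LD. Genes without a named product also included ostta03g05340, at 1.641 and 75.66 after SD and 1.044 and 76.84 after LD, and ostta07g04280, at 5.72 and 143.6 after SD and 7.018 and 160.9 after LD. In all, 47 of the 164 had no annotation beyond unnamed or hypothetical.

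Redox and lipid genes made up a smaller group whose members peaked at ZT4 or ZT8 in LD. Of 95 redox genes 4 were members, and of 16 genes of fatty acid and lipid synthesis 2. The gene ostta09g00110, of the thioredoxin-like fold shared by proteins that reduce disulfide bonds, had medians of 144.4 FPKM in DD and 1572 in LL after SD and of 145.2 and 617.3 after LD. It was higher in SD than in LD over the day by 2.14 ± 0.10 on the log2 scale (limma adjusted p = 8.2e-16), and at ZT0 it stood at 1113 ± 313 FPKM in SD and at 68.16 ± 17.4 in LD (mean ± s.d., n = 3). A fatty acid desaturase gene (ostta03g03040), whose product puts double bonds into membrane lipids, had medians of 216.6 in DD and 1308 in LL after SD and of 115.4 and 531.5 after LD, and was likewise higher in SD than in LD, by 1.15 ± 0.11 (adjusted p = 4e-09). A haem peroxidase gene, ostta09g00500, was the redox member with the deepest night, −2.71 in SD and −5.14 in LD.

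Signalling genes included members with wide swings. Of 106 protein kinase genes, 6 were members (5.66%, against 2.14% of all genes), 4 of them lower at night in SD and 4 in LD. On the whole list 13 genes were lower and 38 higher at night in SD, and 24 lower and 50 higher in LD, where 8.03% and 19.8% of all genes were lower. The phosphotransfer gene ostta08g04240, whose product belongs to the relay of histidine kinase signalling, had 3.35 to 142 FPKM (median 34.8) in DD after SD and 434 to 1729 (median 757) in LL after SD, and 3.72 to 108.5 (median 29.8) in DD after LD and 259 to 670 (median 372) in LL after LD. Its night minus day difference was −4.24 ± 0.34 in SD and −6.96 ± 0.34 in LD (limma adjusted p = 7.1e-11 and 6.5e-16). The cryptochrome ostta01g06470, named CRY3 in the study, was the only member among 5 genes of photoreceptors and photolyases, with medians of 5.671 in DD and 30.35 in LL after SD and of 5.443 and 44.91 after LD. Of 78 transcription regulators, 2 were members, the Myb gene ostta09g00450 and the CBF/NF-Y gene ostta07g03460.

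Of 233 membrane transporter genes, 5 were members, a share (2.15%) like that of all genes (2.14%). Of the 5, 1 was lower at night in SD and all 5 in LD. On the whole list 15 genes were lower and 95 higher in SD, and 39 lower and 119 higher in LD (8.03% and 19.8% of all genes were lower). The gene ostta10g00940, which the study names as the nitrate transport component NRT3, is not on that list and was looked up after its values were seen. It had 0 to 3165 FPKM (median 510) in DD after SD and 1227 to 5242 (median 2877) in LL after SD, and 0.494 to 2471 (median 192) in DD after LD and 663 to 4826 (median 1873) in LL after LD. Its DD and LL libraries overlapped after both entrainments, and the spread within DD was wider than the distance between the medians.

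Lists of basic cell functions held few members, as do all genes (2.14%). Members were 1 of 84 chaperone genes, 1 of 21 core histone genes, 1 of 109 ribosomal protein genes and 1 of 33 proteasome genes, and 0 of 45 ribosome assembly genes, 0 of 44 tRNA synthetase genes, 0 of 40 respiration and ATP synthase genes, 0 of 19 nitrogen assimilation genes and 0 of 11 starch genes. Of these lists, 3 starch genes and 11 nitrogen genes reached 20 FPKM in both LL regimes, so the others could not enter the set. The nitrogen list was drawn from annotations and does not hold the member ostta10g00940 (NRT3). On that list 2 genes reached a ratio of 4 after SD and 2 after LD. The members on these lists of basic functions were the ASF1 gene, the histone gene ostta08g01920, the L19 gene ostta20g00570 and the Rpn13 gene ostta11g02410. The histone gene varied so widely between samples in LD, with 740.5 ± 1220 FPKM at ZT0 (mean ± s.d., n = 3), that the s.d. exceeded the mean. Altogether 48 of the 164 genes were on at least 1 of the 22 lists.

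Night against day was compared within SD and within LD, which the rule had not used. The night comprised ZT12, ZT16, ZT20 and ZT0 in SD and ZT20 and ZT0 in LD. In SD, 83 members were lower at night, where 8.03% of all genes were, and 25 were higher, where 32.6% were (limma, Benjamini-Hochberg adjusted p under 0.05). In LD, 89 were lower, where 19.8% of all genes were, and 42 were higher, where 35.2% were. The median log2 difference of night minus day was −0.51 over members and 0.29 over all genes in SD, and −0.85 over members and 0.22 over all genes in LD. Both photoperiods gave a lower night level for 58 members and a higher one for 19. A minority went opposite ways, with 7 lower at night in SD and higher in LD, and 3 higher in SD and lower in LD, while 12 passed in neither.

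These counts rest on where the transition hours are placed. Without ZT0 and the time point of lights off (ZT8 in SD, ZT16 in LD), 52 members (31.7%) were lower and 52 (31.7%) higher at night in SD, where 5.92% of all genes were lower and 42.9% higher. In LD, 59 (36%) were lower and 62 (37.8%) higher, where 10.1% and 39.7% of all genes were. The median over members became 0.10 in SD and −0.13 in LD, against 0.54 and 0.50 over all genes. Scaling each library to its upper quartile gave 91 lower and 16 higher members in SD, where 11.4% of all genes were lower and 19.2% higher, and moved the median of all genes in SD to 0.11.

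Members that rose at night were led by genes of unknown product. The gene ostta17g01050 rose at night by 2.05 ± 0.30 in SD and by 3.91 ± 0.30 in LD (limma adjusted p = 2.8e-06 and 8.8e-12). It reached 762.8 ± 127 FPKM at ZT12 in SD and 1084 ± 222 at ZT0 in LD (mean ± s.d., n = 3), yet its medians were 32.85 in DD and 139.9 in LL after SD and 21.31 and 235.6 after LD. At ZT12, in the SD night, and at ZT0, lights on after the LD night, it was thus above both its DD and its LL medians. Others of this kind were ostta07g04280 (0.91 ± 0.28 in SD, 2.65 ± 0.28 in LD), ostta04g04670 (1.22 and 2.52), ostta15g00375, which has a DNA-binding domain (1.38 and 2.47), ostta13g00690 (0.86 and 2.50), the radical SAM gene ostta12g01090 (1.59 and 1.31) and ostta01g00640 (1.53 and 1.76).

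The size of the night difference itself differed between SD and LD in 101 members: it was lower in SD in 43, where 9.1% of all genes were, and higher in SD in 58, where 15.5% were. For the most abundant genes the night difference was smaller in SD, by 2.62 ± 0.40 for ostta03g04550 and by 2.14 ± 0.16 for PsbO (limma adjusted p = 1.5e-05 and 1.8e-10). CDKB went the other way, by −2.43 ± 0.43 (adjusted p = 0.00011).

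**Figure D5:**
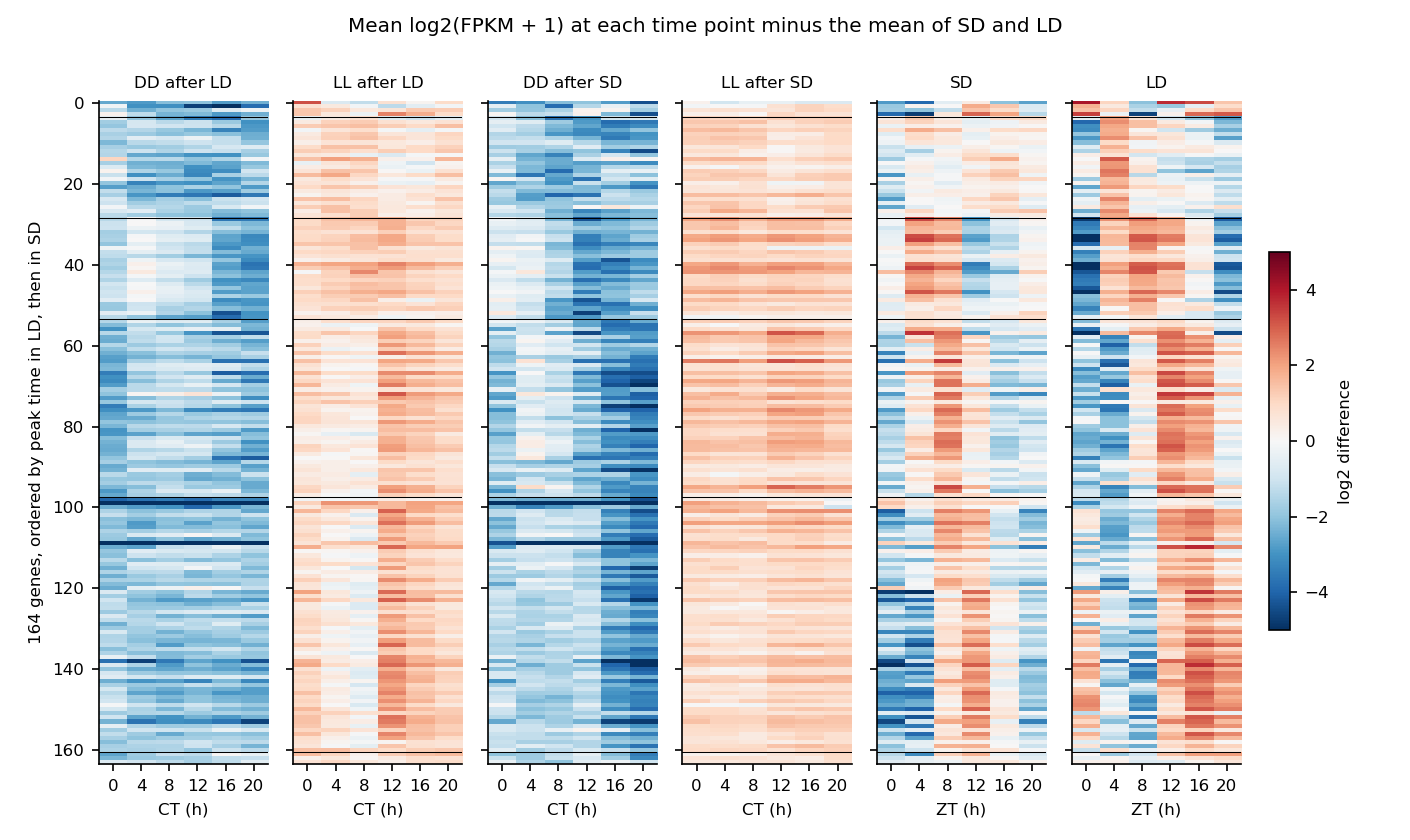
Mean log2(FPKM + 1) of the 164 genes at each time point minus the mean of the gene over SD and LD, as colour (red above, blue below), with 1 line per gene ordered by the hour of its peak in LD and then in SD, and 1 panel per regime. The DD panels are blue at nearly all hours and the LL panels red, while in SD and LD the genes form blocks that peak at ZT4 to ZT12 in SD and at ZT4 to ZT16 in LD; black lines separate the peak hours in LD.

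Few members peaked late in the night. In SD, 32 peaked at ZT4 (19.5%, against 6.79% of all genes), 61 at ZT8 (37.2% against 18.1%), 49 at ZT12 (29.9% against 35.3%) and 15 at ZT16 (9.15% against 11.7%). Of these hours, ZT12 and ZT16 belong to the SD night. In LD, 25 peaked at ZT4 (15.2% against 12.3%), 25 at ZT8 (15.2% against 6.26%), 44 at ZT12 (26.8% against 14.5%) and 63 at ZT16 (38.4% against 22.9%). At ZT20 and ZT0 the counts were 4 and 3 in SD, where 12.4% and 15.7% of all genes peaked, and 3 and 4 in LD, where 23.9% and 20.2% did. The peak in SD came earlier than in LD for 128 of 164 members and 4048 of 7668 genes and later for 25 members and 2763 genes. Peaks 12 h apart, which have no direction, were counted as later. Among the 25 later members these were 13 at ZT16 in SD and ZT4 in LD, 4 at ZT12 and ZT0, and 2 at ZT20 and ZT8. The peak fell at the same hour for 11 members and 857 genes. Combinations of SD with LD hours fell into a few classes: ZT4 with ZT8 in 21 members (12.8%, against 2.07% of all genes), ZT8 with ZT12 in 39 (23.8% against 7.75%), ZT12 with ZT16 in 39 (23.8% against 10.6%), ZT8 with ZT16 in 20 (12.2% against 5.87%) and ZT16 with ZT4 in 13 (7.93% against 3.77%). The antenna genes belong to the first of these classes, the replication genes to the next, and CYCB, Smc2, CKS and the condensin subunit to the third.

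A 24 h rhythm was found in 137 members (83.5%) in SD, where 48.1% of all genes had one, and in 156 (95.1%) in LD, where 69.4% had one (F test on cosine and sine terms, limma, adjusted p under 0.05). The members also swung more widely, with a median fitted peak-to-trough log2 difference of 3.05 in SD and 4.64 in LD, against 0.83 and 1.44 for all genes. All genes here include those that did not reach 20 FPKM in both LL regimes and could not be members. Their part in these differences was not tested.

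Rhythms in constant conditions came from the libraries that also chose the genes, though not from their medians. In LL after SD 3 members passed (0.261% of all genes), ostta18g00860, ostta01g06410 and the PDZ-domain gene ostta04g00130, named because they are so few. In LL after LD 0 members and 0.0% of all genes passed by the limma F test on cosine and sine terms, although 77 members and 2190 genes had an unadjusted p under 0.05 and 105 members had their highest mean at circadian time 12 (CT12, 12 h after subjective dawn; 64.0%, against 19.9% of all genes). An F test over the 6 time points gave 0 members as well, and 6 passed with the sample number as a block. The median peak-to-trough difference was 0.43 over members and 0.30 over all genes in LL after SD, and 1.17 and 0.54 in LL after LD.

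In DD more of them passed. In DD after SD 98 members (59.8%) had a rhythm, where 50.8% of all genes did, and 124 (75.6%) with the sample number as a block, where 62.2% did. In DD after LD 35 members (21.3%) passed, where 30.1% of all genes did, and 88 (53.7%) with the block, where 58.2% did, so the count rests on how the step between numbers 6 and 7 is treated. Without number 6 it was 25, and 786 over all genes. Without number 7 it was 0 both for members and for all genes (limma, 2439 genes with an unadjusted p under 0.05). By an F test over the 6 time points, 47 members (28.7%, against 27.0% of all genes) passed in DD after SD. After LD this count was 0 for members and for all genes (limma, 30 members and 1982 genes with an unadjusted p under 0.05). All 9 antenna members passed the cosine test in both DD regimes (largest adjusted p = 0.0029 after SD and 0.035 after LD), with fitted peak-to-trough differences of 3.13 and 3.10 for ostta03g04550 (limma adjusted p = 0.00024 and 0.011). In DD after SD, 60 members had their highest mean at CT0 (36.6%, against 14.9% of all genes) and 51 at CT4 (31.1% against 16.8%). The median over members was 22.3 FPKM at CT4 and 3.85 at CT20.

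Against the entraining cycle, DD levels were outside the daily range for part of the set only. The DD median was below the lowest time point mean of SD in 91 members (55.5%, against 26.3% of the 5339 genes that reached 20 FPKM in LL) and below that of LD in 55 (33.5%, against 15.2%). In the remaining 73 and 109 members it lay within the daily range. The rule took genes with low DD medians, so nothing is read from these shares. The LL median was above the highest time point of SD in 34 members (20.7%, against 13.0% of the 5339 genes) and above that of LD in 9 (5.49% against 5.6%). The permease gene ostta06g02310 and the CobW-like gene ostta06g02290 had DD medians below the daily range, as their lowest time point means were 345.1 ± 159 FPKM and 2971 ± 882 in SD and 35.7 ± 17.9 and 373.9 ± 124 in LD (mean ± s.d., n = 3), against DD medians of 2.00 and 22.3 FPKM after SD and 1.07 and 9.35 after LD.

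Levels averaged over the day were lower in SD than in LD in 67 members, where 17.8% of all genes were, and higher in 34, where 26.1% were (limma, adjusted p under 0.05), with a median of −0.14 over members and 0.05 over all genes (−0.28 and −0.01 without LD number 3). The lower ones included mitotic genes and genes of unknown product such as ostta07g04280 (−2.20 ± 0.19) and ostta01g00640 (−2.41 ± 0.29), and the higher ones included ostta06g02310, ostta06g02290, ostta06g02300 and the thioredoxin-like gene ostta09g00110.

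Members were found on all 20 chromosomes, in shares from 1.19% of the genes of chromosome 11 to 5.0% of those of chromosome 20. Pairs of directly adjacent members numbered 8 and involved 15 genes, among them the antenna pair ostta03g04540 and ostta03g04550 and the run ostta06g02290, ostta06g02300 and ostta06g02310. With overlapping or neighbouring genes, the study's counting may assign reads to either, and this was not tested.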

How the data were processed

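RNA of 84 samples of O. tauri RCC4221 was sequenced as single reads of 75 nt. To obtain FPKM, the authors aligned reads to genome version v3.0 (HISAT2) and quantified transcripts with StringTie and Ballgown; versions are not given in the sources used here. The deposited FPKM values are scaled within each library only, and DD libraries stand in a table of their own. Among the DD values, 182 were whole numbers that looked like values without their decimal point, and 181 of them were divided by 1000 because the quotient lay closer to that gene's remaining DD values. Of the 7668 gene IDs, 7661 matched the reference annotation, used for gene order only. Annotations are those of the paper's tables. No count test was possible on FPKM, so log2(FPKM + 1) was fitted with limma 3.58.1 in R 4.3.3 (eBayes with trend) across all genes, with group means per time point or 24 h cosine and sine terms, tested on simulated data. Medians and counts used Python 3.11.15, pandas 2.3.3 and numpy 2.4.6, and plots matplotlib 3.10.9. Sequencing depth was inferred from the 250 smallest values of a library, of which 48.0 to 90.0% fell within 0.1 of a whole step.

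The members, the gene lists and the tests were chosen with earlier results of these data known. Named are the 10 members with the largest ratios and the 10 with the highest LL medians, the 5 with the largest rise and the 5 with the largest fall at night in each photoperiod, the 3 nearest the limit on each side, and up to 4 per list. In DD, deviations of same-numbered libraries of DD after SD and DD after LD showed correlations from 0.325 to 0.633, over 0.1 in each of 12 comparisons. Libraries of different hours within a regime gave medians of 0.401 in DD after SD and 0.582 in DD after LD. A step shared by all libraries of a number thus cannot be told apart from a pairing of samples, and the labels state no pairing. Alternatives were other limits, means, upper-quartile scaling, a pseudocount of 0.1, a filter at 1 FPKM, other night hours, another rhythm test, a block on sample number and leaving out each sample number.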

Additional observations from a re-analysis of the deposited data

Results flagged for a closer look

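In 20 of the named members the night-minus-day difference was not the same in SD and in LD by limma's test of the difference itself (adjusted over all genes). The values below are the log2 difference in SD minus that in LD, with standard errors from 0.16 to 0.50.

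For the genes of the photosynthetic membrane the night was less deep in SD. The difference was 3.19 for ostta05g03830, 3.07 for ostta16g00450, 2.65 for ostta07g02530, 2.62 for ostta03g04550, 2.49 for ostta03g04540 and 1.99 for ostta02g03330, all antenna genes, and 2.14 for PsbO (ostta14g00150), 1.92 for PsbP (ostta14g02630) and 1.79 for PsaF (ostta04g01790). For the phosphotransfer gene ostta08g04240 it was 2.71 and for ostta02g05340, without a named product, 1.29. The permease gene ostta06g02310 (1.66) and the CobW-like gene ostta06g02290 (1.24) passed as lower at night in LD only.

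In the other genes the difference was negative, so that the night level relative to the day was lower in SD. It was −2.84 for the glycosyl hydrolase gene ostta07g01950 and −2.43 for CDKB (ostta15g00670), both of which passed as lower at night in SD only. It was −1.63 for ostta03g05340, lower at night in both, −1.83 for the kinase gene ostta10g01050, higher at night in LD only, and −1.87 for ostta17g01050, −1.74 for ostta07g04280 and −1.64 for ostta13g00690, all 3 higher at night in both. The night held ZT12, ZT16, ZT20 and ZT0 in SD but ZT20 and ZT0 in LD, and the part of this difference in hours in the result was not tested.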

How the results depend on the processing

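Of the values recomputed under other settings for 28 named members, 962 kept their direction and side of the threshold, 27 lost the call, 18 gained one and 1 turned round: CDKB (ostta15g00670) in SD was 0.85 (adjusted p = 0.083) at night without the lights-on and lights-off time points. Without these points 59 members were lower at night in LD, 52 lower and 52 higher in SD, and the members' median in SD was 0.10. With a ratio of at least 3 the set held 296 genes, including all 164; leaving out a sample number gave 80 (DD number 7 out) to 266 (DD number 6 out). Members higher at night in SD numbered 16 with upper-quartile scaling and 12 to 17 with a sample number left out. The median of SD minus LD in the night difference was −0.03 over all genes with upper-quartile scaling, and −0.03 (LD number 3 out) to 0.22 over members with a number left out; the SD minus LD level had a median of −0.28 (LD number 3 out) to −0.08 over members and −0.01 (LD number 3 out) to 0.09 over all genes. For these the cause was not tested.

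Rhythm counts in constant conditions depended most on the settings. In LL after SD the 3 calls became 0 with a pseudocount of 0.1, with an F test over the 6 time points and with either number left out. In DD after LD the 35 calls became 88 with the replicate block, 0 with the F test (30 members with an unadjusted p under 0.05) and 0 (number 7 out) to 25 (number 6 out); in DD after SD the 98 became 47 with the F test. In LL after LD the block gave 6, in place of 0. Numbers do not pair SD with LD (correlations over 0.1 in 7 of 18 pairs) or the LL regimes (0 of 12). In SD and LD the block moved no count of calls by over 1.5 times. Fewer samples enter when a number is left out, and values under about 1 FPKM rest on few reads in the shallow libraries.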
